A study of Mus musculus with 6 samples.

Results

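The transcripts described here are those of 9 Toll-like receptors, Tlr1, Tlr2, Tlr3, Tlr4, Tlr6, Tlr7, Tlr8, Tlr9 and Tlr13, and of the co-receptor Cd14, in cultured mouse macrophages with and without cadherin-11. They were chosen by symbol, with earlier results of these data known, as 10 of the 42256 genes of the count table. All 10 passed the filter on low counts that left 12862 genes for testing. Wild-type libraries (WT) carried the genotype CDH11+/+ and knockout libraries (KO) the genotype CDH11-/-. Both were on a mixed background, 129S1/Sv x C57BL/6, and the marrow came from adult male mice. Marrow cells of both were grown for 7 days in 20% L929-conditioned medium, a source of the macrophage growth factor CSF1, and were left untreated before RNA extraction. No Toll-like receptor ligand was added, so the values are resting levels. There were 3 libraries of each genotype, with 27170943 to 37113689 counts each. The series' design text speaks of 3 WT and 4 KO animals, but the sample labels name neither animals nor the allele, and each p-value therefore rests on the spread among the 6 libraries, which may be technical.

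Toll-like receptors are membrane proteins that bind microbial products with a leucine-rich ectodomain and signal through a cytoplasmic TIR domain, the adaptors MyD88 and TRIF, and the transcription factors NF-kB and IRF. TLR1, TLR2, TLR4 and TLR6 act at the cell surface on lipopeptides and lipopolysaccharide, and CD14 hands lipopolysaccharide to TLR4 and its partner MD-2. TLR3, TLR7, TLR8, TLR9 and TLR13 sense nucleic acids inside endosomes, which they reach with the chaperone UNC93B1.

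Cdh11, the targeted gene, was close to absent in both genotypes, with 6, 11 and 6 counts in WT 1, WT 2 and WT 3 and 6, 4 and 5 counts in KO 1, KO 2 and KO 3 (log2 fold change -0.55, SE 0.51, adjusted p = 0.423). Such low WT counts cannot check the genotype labels. On the first principal component of the 500 most variable genes, with 67.0% of the variance, the scores of WT were -18.8, -22.9 and -12.2 and those of KO 7.11, 28.4 and 18.4, so KO 1 was the KO library nearest to WT. The 8 macrophage markers were abundant, and their summed level, most of it Lyz2, was 30875 to 33593 CPM (counts relative to the library total) in WT and 19538 to 25243 CPM in KO. Of these 8, Csf1r and Lyz2 were called lower, Cd68 was called higher, and 5 were not called. That is 25% lower and 12.5% higher, beside 16.8% lower and 18.5% higher among all genes tested. In bulk RNA, fewer cells of a type and less RNA per cell cannot be told apart.

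Of the 10 genes, 7 were lower in KO and none was higher, at an adjusted p under 0.05 in edgeR's quasi-likelihood test over all 12862 genes. Of all genes tested, 35.2% were called, 16.8% as lower and 18.5% as higher. The 7 genes were Tlr1, Tlr2, Tlr4, Tlr7, Tlr8, Tlr9 and Cd14, and 8 of the 10 had an unadjusted p under 0.05. DESeq2 called 8 lower and limma-voom 7, and neither called one higher; none was higher at an unadjusted p under 0.05. Every member but Tlr6 had its 3 KO libraries below its 3 WT libraries (9 of 10), against 26.4% of all genes tested, and 27.0% of all genes had every KO library above every WT library (53.4% in either direction). The median log2 fold change of the 10 was -0.39, beside 0.00 for all genes. The largest falls were those of Tlr2, Tlr9 and Tlr7, while Tlr6 and Tlr13 had log2 fold changes within 0.10 of 0. Values below are CPM on library totals scaled by the trimmed mean of M-values (TMM), as mean ± SD with n = 3, and a gene is said to have fallen only where it passed the test. The count of 7 was sensitive to single libraries: leaving out WT 1 or KO 3 gave 2, WT 2 gave 3, WT 3 or KO 2 gave 4, and KO 1 gave 7.

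**Figure D1:**
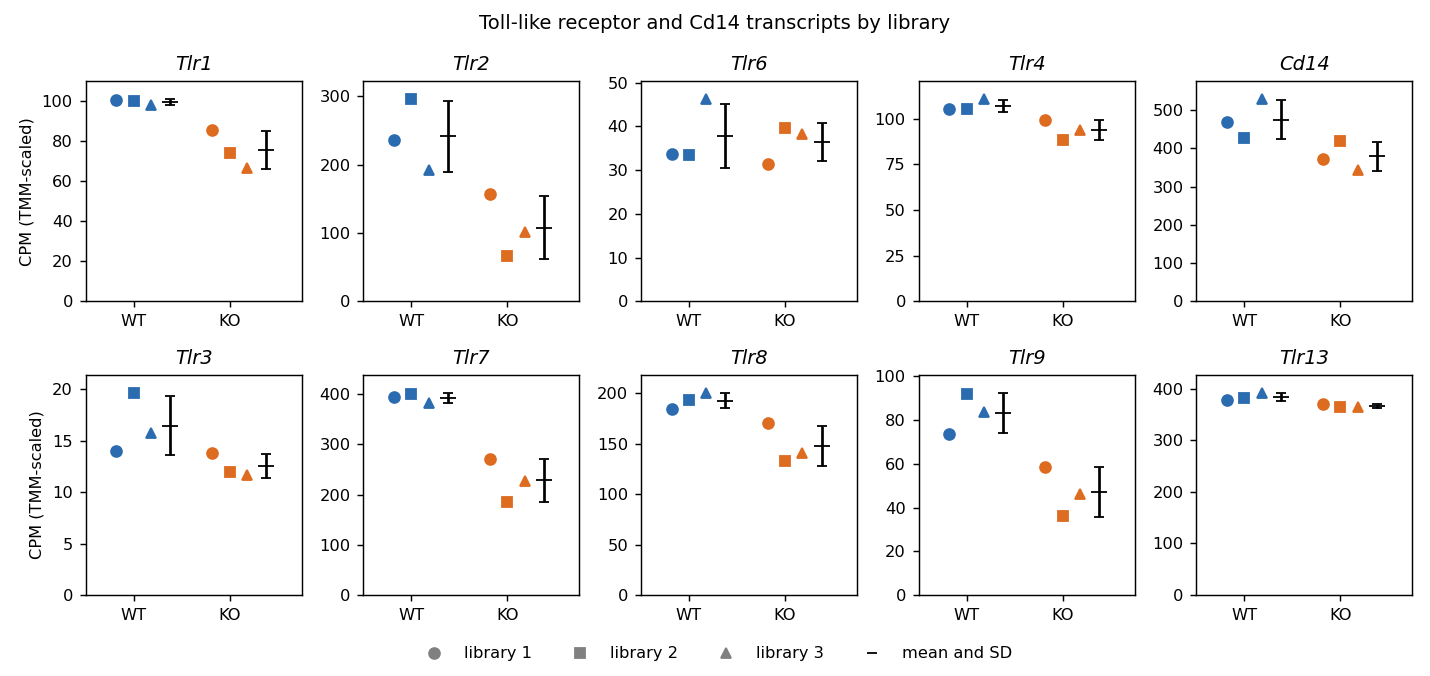
Levels of the 10 transcripts in each of the 6 libraries, in TMM-scaled CPM on axes that start at 0, with marker shapes for libraries 1 to 3 of each genotype and bars for mean and SD. The KO libraries lie below the WT libraries in every panel but that of Tlr6, and KO 1 is the highest KO library in 8 of the 10 panels.

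Among the surface receptors, Tlr2 showed the largest difference of the set. TLR2 is the shared subunit of the lipopeptide receptors and pairs with TLR1 or TLR6. Tlr2 (ENSMUSG00000027995, GRCm38 chr3:83836272-83841767, minus strand) had 236, 296 and 192 CPM in WT 1, WT 2 and WT 3 and 157, 65.8 and 101 CPM in KO 1, KO 2 and KO 3. The genotypes did not overlap, but the spread within each was wide, with KO 2 lowest and WT 2 highest. The means were 241 ± 52.0 CPM in WT and 108 ± 45.9 CPM in KO, a 2.24-fold lower level (log2 fold change -1.16, SE 0.33, adjusted p = 0.0361). The call was lost without WT 1 (adjusted p = 0.0830), WT 2 (0.0920), KO 2 (0.0797) or KO 3 (0.107), and the log2 fold change then ran from -1.18 to -0.90. It was also lost when no low counts were filtered out (adjusted p = 0.141).

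Tlr1 encodes the partner of TLR2 for triacylated lipopeptides. Tlr1 (ENSMUSG00000044827, chr5:64924679-64933563, minus strand) stood at 101, 100.1 and 98.0 CPM in the WT libraries and at 85.5, 74.3 and 66.7 CPM in the KO libraries. The WT libraries were nearly equal and all lay above the highest KO library. Means were 99.6 ± 1.39 CPM in WT and 75.5 ± 9.45 CPM in KO, a fall that passed the test (log2 fold change -0.40, SE 0.09, adjusted p = 0.0151). Without WT 1 the adjusted p was 0.0593, at a log2 fold change of -0.39.

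Tlr6, the partner of TLR2 for diacylated lipopeptides, lies next to Tlr1 on the same strand (ENSMUSG00000051498, chr5:64952031-64960097). Its levels were 33.7, 33.5 and 46.2 CPM in WT and 31.5, 39.6 and 38.2 CPM in KO. WT 3 was the highest of all 6 libraries and the other WT libraries lay inside the KO range. The means of 37.8 ± 7.29 and 36.4 ± 4.37 CPM gave a log2 fold change of -0.05 (SE 0.15, adjusted p = 0.805). Its sign changed with the choice of scaling and with single libraries: it was 0.11 without WT 3, 0.04 without KO 1, 0.01 with upper-quartile scaling and 0.04 on the deposited normalized values.

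Tlr1 and Tlr6 resemble each other in sequence, which bears on how their reads could be assigned. Their coding sequences (GENCODE transcripts) were identical at 1767 of 2362 aligned bases, or 74.8%. Of the 50-base windows of the Tlr1 transcript, 454 of 2976 (15.3%) also occurred in Tlr6, and 456 of 3628 Tlr6 windows (12.6%) occurred in Tlr1 or in Ctsq. No source used here says how the authors treated such reads, and the split of counts between Tlr1 and Tlr6 is uncertain. The longest identical stretch, shown because a read inside it fits both genes, is 229 bases long. It lies in coding exon 4 of 4 of Tlr1 (chr5:64925537-64925765) and exon 2 of 2 of Tlr6 (chr5:64953828-64954056), both in GRCm38 on the minus strand.
Tlr1 and Tlr6 shared stretch: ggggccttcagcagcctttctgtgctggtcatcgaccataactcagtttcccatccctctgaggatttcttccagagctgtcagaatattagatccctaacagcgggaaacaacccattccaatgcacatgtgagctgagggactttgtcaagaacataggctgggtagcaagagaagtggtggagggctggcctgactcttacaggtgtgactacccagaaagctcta

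Tlr2 fell more than Tlr1, and Tlr6 was not called. The mean ratios of Tlr1 and of Tlr6 to Tlr2 were higher in KO. Per kilobase of exon, the ratio of Tlr1 to Tlr2 was 0.384, 0.305 and 0.460 in WT and 0.491, 1.02 and 0.596 in KO. For Tlr6 to Tlr2 the ratio was 0.115, 0.0918 and 0.195 in WT and 0.162, 0.487 and 0.307 in KO. The KO libraries had the higher ratio of Tlr1 to Tlr2 without overlap, whereas those of Tlr6 to Tlr2 overlapped through WT 3 and KO 1. These ratios follow from the levels above and were not tested separately.

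The lipopolysaccharide receptor genes fell by small amounts. Tlr4 encodes the signalling receptor for lipopolysaccharide (ENSMUSG00000039005, chr4:66827584-66930284, plus strand) and had 105, 105 and 111 CPM in WT against 99.5, 88.3 and 94.1 CPM in KO. The genotypes did not overlap, and the distance between the nearest libraries was about as large as the SD within KO. The mean was 107 ± 3.13 CPM in WT and 93.9 ± 5.59 CPM in KO (log2 fold change -0.19, SE 0.06, adjusted p = 0.0495). This call lay at the threshold and was kept in 5 of 15 alternative settings. It was lost with upper-quartile scaling (adjusted p = 0.124), plain library totals (0.0744), no filter on low counts (0.0663) and the deposited normalized values (0.111). It was also lost without WT 1 (0.108), WT 2 (0.0972), WT 3 (0.134), KO 2 (0.135) or KO 3 (0.122).

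Cd14 (ENSMUSG00000051439, chr18:36725067-36726798, minus strand) reached 469, 426 and 528 CPM in WT and 372, 419.9 and 344 CPM in KO. Here KO 2, the lowest KO library for most called receptors, was the highest, and it nearly met WT 2. Its mean level was 474 ± 51.3 CPM in WT and 379 ± 38.3 CPM in KO (log2 fold change -0.33, SE 0.10, adjusted p = 0.0455). The call was lost without WT 1 (adjusted p = 0.111), WT 3 (0.123), KO 1 (0.0773) or KO 3 (0.135), with upper-quartile scaling (0.0849) and with plain library totals (0.0625). Ly96, which encodes MD-2, had 12.9, 10.3 and 11.8 CPM in WT and 12.8, 10.9 and 10.7 CPM in KO, so its genotypes overlapped (log2 fold change -0.03, SE 0.12, adjusted p = 0.862).

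Among the endosomal receptors, Tlr7 and Tlr9 showed the larger differences. TLR7 senses single-stranded RNA. Tlr7 (ENSMUSG00000044583, chrX:167304929-167330558, minus strand) had 395, 401 and 383 CPM in WT and 272, 186 and 228 CPM in KO. The WT libraries lay within a narrow band, and the highest KO library was well below the lowest of them. The mean fell from 393 ± 9.46 to 229 ± 42.9 CPM, 1.72-fold (log2 fold change -0.78, SE 0.13, adjusted p = 0.00728). Tlr7 was the only one of the 7 called members that was called lower in all 15 alternative settings, with log2 fold changes of -0.93 to -0.64 and adjusted p of at most 0.0364.

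Tlr8 lies beside Tlr7 on the X chromosome and encodes a related endosomal receptor (ENSMUSG00000040522, chrX:167242696-167264329, minus strand). It had 185, 193 and 200.0 CPM in WT and 171, 133 and 141 CPM in KO, with KO 1 closest to the WT range. On average it had 193 ± 7.65 CPM in WT and 148 ± 19.8 CPM in KO (log2 fold change -0.38, SE 0.10, adjusted p = 0.0223). Leaving out any library but KO 1 moved the adjusted p above the threshold: with WT 1, WT 2 or WT 3 left out it was 0.0599, 0.0642 and 0.0598, and with KO 2 or KO 3 left out it was 0.0585 and 0.0808. Per kilobase of exon the ratio of Tlr7 to Tlr8 was 1.88, 1.82 and 1.68 in WT and 1.40, 1.22 and 1.42 in KO. Every KO ratio of these neighbouring genes was below every WT ratio, but the ratio was not tested separately.

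TLR9 senses DNA rich in unmethylated CpG. Tlr9 (ENSMUSG00000045322, chr9:106222598-106226883, plus strand) had 73.7, 92.2 and 83.7 CPM in WT and 58.8, 36.0 and 46.4 CPM in KO. As for Tlr2 and Tlr7, KO 1 was the highest and KO 2 the lowest KO library. The mean fell from 83.2 ± 9.22 to 47.1 ± 11.4 CPM, 1.77-fold (log2 fold change -0.82, SE 0.18, adjusted p = 0.0178). Without WT 2 the adjusted p was 0.0526, without KO 3 0.0632, and with no filter on low counts 0.0582.

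TLR3 senses double-stranded RNA and signals through TRIF alone. Tlr3 (ENSMUSG00000031639, chr8:45395665-45411080, minus strand) was the least abundant member, with 14.0, 19.6 and 15.7 CPM in WT and 13.8, 12.0 and 11.7 CPM in KO. WT 1 and KO 1 almost touched, and WT 2 stood above the rest. The means were 16.5 ± 2.87 and 12.5 ± 1.16 CPM (log2 fold change -0.39, SE 0.14, adjusted p = 0.0579), so Tlr3 did not pass the test. It was called with DESeq2 (adjusted p = 0.0434), with no filter on low counts (0.0317) and without KO 1 (0.0376), while the log2 fold change was -0.26 without WT 2. On the deposited normalized values the log2 fold change was -0.13 (adjusted p = 0.480). The factors that turn the counts into those values, relative to the library median, were 1.10, 1.11 and 1.08 for Tlr3 in WT and 0.926, 0.896 and 0.915 in KO, and 0.311% of tested genes had a gap between genotypes at least as large. Tlr3 lies on the same chromosome as Cdh11, 57.2 Mb away, and 68 of its 4358 windows of 50 bases (1.56%) occur on the opposite strand in the overlapping gene Gm45542.

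Tlr13 encodes a receptor for bacterial ribosomal RNA that mice have and humans lack (ENSMUSG00000033777, chrX:106143204-106160493, plus strand). Its levels were 377, 381 and 391 CPM in WT and 371, 364 and 364 CPM in KO. All KO libraries lay below all WT libraries, by a margin that was small beside those of Tlr7 and Tlr9. The means of 383 ± 7.30 and 366 ± 4.11 CPM gave a log2 fold change of -0.07 (SE 0.05, adjusted p = 0.352), which was not called in any of the 15 alternatives. Tlr7 and Tlr13 are both X-linked, and the ratio of Tlr7 to Tlr13 per kilobase of exon was 1.10, 1.11 and 1.03 in WT and 0.773, 0.539 and 0.661 in KO.

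**Figure D2:**
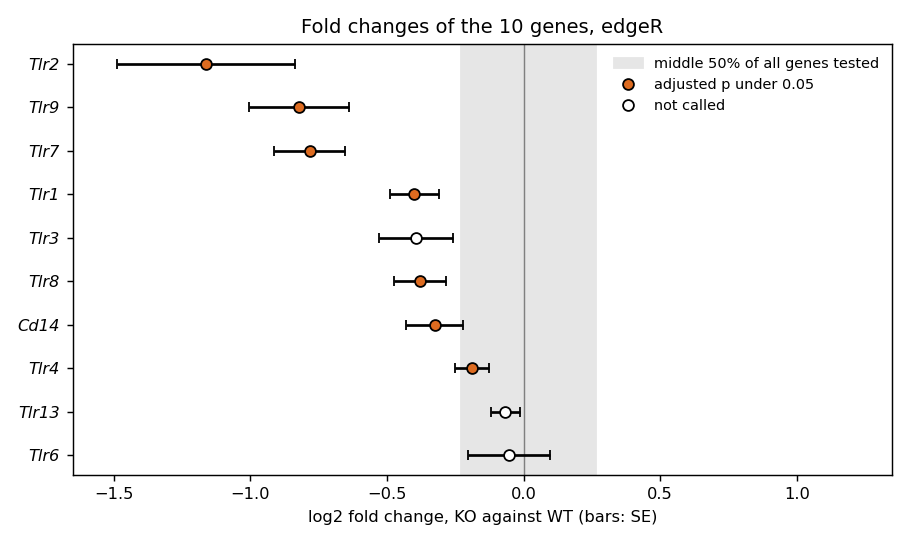
Log2 fold changes of the 10 genes in KO against WT with their standard errors from edgeR, filled where the adjusted p was under 0.05, over a grey band from the lower to the upper quartile of all genes tested (-0.23 to 0.27). Tlr2, Tlr9 and Tlr7 lie farthest below the band, and Tlr4, Tlr13 and Tlr6 lie inside it.

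KO 1 was the highest KO library for 8 of the 10 genes, and KO 2 was the lowest for 5, KO 3 for 4 and KO 1 for 1. Leaving out KO 1, the library nearest to WT on the first principal component, gave a lower log2 fold change for Tlr1, Tlr2, Tlr3, Tlr4, Tlr7, Tlr8 and Tlr9, which were all called then. For Tlr2 it changed from -1.16 to -1.53 and for Tlr9 from -0.82 to -1.01. With WT 2 and KO 2 both left out, a setting chosen after seeing the data, only Tlr7 and Cd14 were called among the 10, at log2 fold changes of -0.64 and -0.48.

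**Figure D3:**
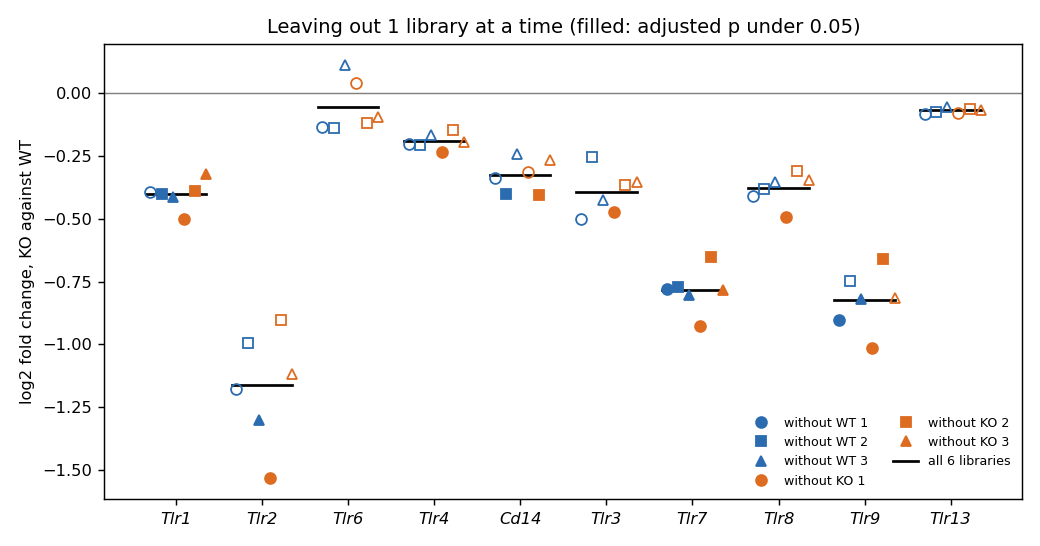
Log2 fold changes of the 10 genes with each of the 6 libraries left out in turn, filled where the adjusted p was under 0.05, with a line at the value from all 6 libraries. Tlr7 is filled in all 6 settings, Tlr6 changes sign without WT 3 or KO 1, and Tlr2 spreads most, from -1.53 to -0.90.

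Per length, Cd14 was the most abundant of the 10 transcripts and Tlr3 the least in both genotypes. In CPM per kilobase of exon, the WT means were 274 ± 29.6 for Cd14, 96.3 ± 2.32 for Tlr7, 89.1 ± 1.70 for Tlr13 and 80.0 ± 17.2 for Tlr2. They were followed by 53.7 ± 2.13 for Tlr8, 29.8 ± 0.415 for Tlr1, 23.9 ± 2.65 for Tlr9, 19.3 ± 0.563 for Tlr4, 10.1 ± 1.96 for Tlr6 and 3.16 ± 0.550 for Tlr3. Only Tlr13 and Tlr2 overlapped among neighbours in this order. With the longest transcript in place of all exons, Tlr4 moved above Tlr9 and the other 8 of 9 neighbouring pairs kept their order.

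In KO the order of these levels changed in the middle. Tlr13 (85.1 ± 0.956 CPM per kilobase) stood above Tlr7 (56.0 ± 10.5), Tlr8 (41.3 ± 5.51) above Tlr2 (35.8 ± 15.2), and Tlr4 (16.9 ± 1.01) above Tlr9 (13.5 ± 3.28). Cd14 was at 219 ± 22.1, Tlr1 at 22.6 ± 2.83, Tlr6 at 9.78 ± 1.17 and Tlr3 at 2.40 ± 0.223 on the same scale. The ranges of Tlr7 and Tlr8, Tlr8 and Tlr2, Tlr2 and Tlr1, Tlr4 and Tlr9, and Tlr9 and Tlr6 overlapped, so the order within these pairs was not resolved. Tlr13 lay above Tlr7 without overlap, whereas in WT Tlr7 lay above Tlr13 without overlap.

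**Figure D4:**
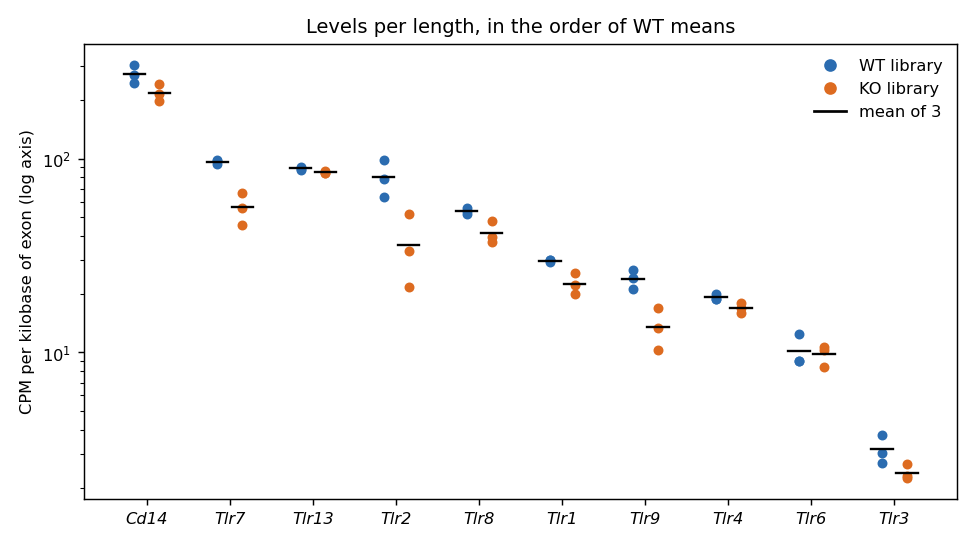
Levels of the 10 transcripts per kilobase of annotated exon on a log axis, in the order of their WT means, with 1 point per library and a line at the mean of 3. Tlr7 lies just above Tlr13 in WT and below it in KO, and Tlr9 drops below Tlr4 in KO with overlapping points.

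Promoters were read from the RefSeq table (GRCm38.p6), which holds 250 bases before to 50 after each start and has 9 windows for 7 of the 10 genes. They were searched on both strands for 3 motifs: the core GAGGAAGT bound by the myeloid factor PU.1, the NF-kB motif GGGANTTTC, and GAAANNGAA of the interferon-stimulated response element. Of all 32851 promoter windows, 3.20%, 1.11% and 8.56% held them. The PU.1 core occurred in Tlr1 and Tlr9, the NF-kB motif in Tlr3, and the interferon motif in Tlr6, with a pair of overlapping matches, and in Tlr8. Tlr1 and Tlr6 have 2 windows each, and the other window of each held no match. No motif occurred in the windows of Tlr2 and Tlr13. The matches of Tlr1 and Tlr9, both lower in KO, and of Tlr6 and Tlr8, of which Tlr8 was lower, are printed with the match in capitals. A match is a run of letters and not a measured binding site.
Tlr1 (chr5:64933559-64933621, minus strand, PU.1 core 23 to 16 bases before the start): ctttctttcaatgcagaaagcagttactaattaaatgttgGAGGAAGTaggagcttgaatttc
Tlr9 (chr9:106222597-106222626, plus strand, PU.1 core on the opposite strand 11 to 18 bases into the transcript): gtgaaagtgtcACTTCCTCaattctctgag
Tlr6 (chr5:64959233-64959321, minus strand, interferon motif on the opposite strand, first of the overlapping matches): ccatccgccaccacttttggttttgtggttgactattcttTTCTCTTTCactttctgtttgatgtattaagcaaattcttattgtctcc
Tlr8 (chrX:167264348-167264436, minus strand, interferon motif on the opposite strand): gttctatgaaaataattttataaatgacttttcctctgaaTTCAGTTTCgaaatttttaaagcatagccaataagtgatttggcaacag

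The rest of the pathway was read from 9 lists of genes by role, also chosen with earlier results of these data known. They held 126 genes in all, of which 117 were tested. Of these 28 (23.9%) were lower in KO and 11 (9.40%) higher, and their median log2 fold change was -0.31. Among all genes tested, 16.8% were lower and 18.5% higher. Once the list of interferon-stimulated genes was set aside, 20 of 87 (23.0%) were lower and 11 (12.6%) higher. These 20 still held Cxcl10, Irf1 and Trafd1, which were highest in WT 2, as was the summed level of the interferon-stimulated list. The lower count was 13 without WT 1, 12 without KO 2 and 9 without KO 3, and the higher count was 5 without WT 1 and 6 without KO 3. DESeq2 called 48 lower.

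Of the other mouse Toll-like receptors, Tlr5, the flagellin receptor, was tested and fell. It had 5.17, 4.53 and 5.41 CPM in WT and 2.77, 2.09 and 2.13 CPM in KO (log2 fold change -1.11, SE 0.17, adjusted p = 0.00622) and was called in all 15 alternatives. Tlr11 and Tlr12 were below the filter, at 0.107 to 0.566 and 0.138 to 0.316 CPM.

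Of 5 ligand delivery and co-receptor genes tested, 2 rose and none fell in edgeR (2 lower at an unadjusted p under 0.05, and 1 called lower by DESeq2), with a median log2 fold change of -0.03. The 2 that rose are 40% of the list, beside 18.5% called higher among all genes tested. Lbp, which encodes the lipopolysaccharide-binding protein, and Ly86, which encodes MD-1, the partner of CD180, were lower in every KO library than in every WT library but did not pass the test. Of all genes tested, 26.4% had every KO library below every WT library. Lbp had 0.777, 1.62 and 0.896 CPM in WT and 0.632, 0.481 and 0.498 CPM in KO (log2 fold change -1.01, SE 0.35, adjusted p = 0.0608). Ly86 had 145, 164 and 140.1 CPM in WT and 137, 81.0 and 94.4 CPM in KO (log2 fold change -0.52, SE 0.20, adjusted p = 0.0812). Cd36, a scavenger receptor that assists TLR2 with TLR6, rose from 523, 462 and 747 to 1501, 2515 and 1714 CPM (log2 fold change 1.73, SE 0.26, adjusted p = 0.00717). Cd180, a TLR4-like surface protein, rose from 197, 221 and 231 to 247, 280 and 268 CPM (log2 fold change 0.29, SE 0.08, adjusted p = 0.0284). The Cd180 call was lost without WT 1 (adjusted p = 0.0938), WT 2 (0.0674), KO 2 (0.0806) or KO 3 (0.0867).

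Of 11 chaperone, trafficking and endosomal processing genes, 2 rose and 2 fell, with a median of -0.11. That is 18.2% each, beside 18.5% higher and 16.8% lower among all genes tested. Unc93b1, whose product carries the nucleic-acid receptors to endosomes, had 997, 1139 and 1007 CPM in WT and 974, 768 and 900.2 CPM in KO, without overlap but not past the test (log2 fold change -0.25, adjusted p = 0.0943). Such a lower KO range without overlap occurred in 26.4% of all genes tested. Ctsl, an endosomal protease, and Hsp90b1, the chaperone gp96, rose by 0.85 and 0.31 on the log2 scale. Slc15a4, an endolysosomal transporter, and Nrros, a regulator of reactive oxygen species, had log2 fold changes of -0.37 and -0.22. The Nrros call was lost without WT 1 (adjusted p = 0.0928), WT 2 (0.107), KO 2 (0.0970) or KO 3 (0.105). On the deposited normalized values Slc15a4 was at -0.09 (adjusted p = 0.851), and the rises were lost without WT 1 (adjusted p = 0.0663 for Ctsl and 0.0581 for Hsp90b1) or WT 2 (0.0619 and 0.0505). Without WT 3, Hsp90b1 was at 0.0513, and without KO 3, Ctsl was at 0.0536.

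Among 6 TIR adaptors, Ticam2, which encodes the TRAM adaptor of TLR4, fell and none rose in edgeR or DESeq2. In edgeR 1 was higher at an unadjusted p under 0.05. The 1 that fell is 16.7% of the list, near the 16.8% called lower among all genes tested, of which 18.5% were called higher. Ticam2 had 62.1, 61.6 and 63.5 CPM in WT and 50.2, 38.1 and 46.7 CPM in KO (log2 fold change -0.47, SE 0.10, adjusted p = 0.0121) and was called in all 15 alternatives. Myd88, the adaptor of most Toll-like receptors, had a log2 fold change of -0.19 (adjusted p = 0.0872), and Ticam1, which encodes TRIF, of -0.02 (adjusted p = 0.817).

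Of 19 kinases and ubiquitin ligases, 7 (36.8%) fell and 1 (5.26%) rose, with a median of -0.18. For all genes tested these shares were 16.8% and 18.5%. The ubiquitin ligases Peli1 and Traf6 fell by 0.57 and 0.45 on the log2 scale and were called in all 15 alternatives. Tab2, an adaptor of the kinase TAK1, and the kinase gene Ripk1 fell by 0.35 and 0.31. Tab2 was not called without WT 1 (adjusted p = 0.0511) or KO 3 (0.0577). The number lower was 4 without WT 1 or KO 3.

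Of 14 transcription factor genes of the pathway, 3 (21.4%) fell and 2 (14.3%) rose, with a median of -0.27. These shares are near the 16.8% lower and 18.5% higher of all genes tested. Irf1, an interferon regulatory factor, had a log2 fold change of -0.74 (adjusted p = 0.0226), Nfkb1, the p50 precursor, of -0.36 (0.0242) and Irf8 of -0.30 (0.0291). Irf1 was not called without KO 2 (0.0830) or KO 3 (0.0771), and both Nfkb1 and Irf8 were lost without WT 1, WT 2, KO 2 or KO 3 (0.0559 to 0.0920). Atf3, a repressor of receptor-induced cytokine genes, rose by 0.59 and was called in all 15 alternatives. The number lower was 1 without WT 1 or WT 2, 0 without KO 2 or KO 3 and 8 without KO 1.

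Inhibitors moved in both directions, with 5 of 17 (29.4%) lower, 3 (17.6%) higher and a median of -0.31. Of all genes tested, 16.8% were called lower and 18.5% higher. Il1rl1, which encodes the IL-33 receptor, rose by 1.21, the phosphatase gene Dusp1 by 0.87 and Tnip3, a partner of the inhibitor A20, by 0.82. Trafd1, a feedback inhibitor, fell by 0.74, and was not called without WT 1 (adjusted p = 0.0516), KO 2 (0.0666) or KO 3 (0.0635). The number lower was 2 without WT 1, KO 2 or KO 3.

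Of 22 inducible target genes, 15 passed the filter on low counts, 1 fell and 1 rose, with a median of -0.19. That is 6.67% each, beside 16.8% lower and 18.5% higher among all genes tested. Il6 and Il12b, cytokine genes that such receptors switch on, reached at most 0.0377 and 0.103 CPM. Cxcl10 had 23.2, 69.3 and 19.5 CPM in WT and 8.92, 3.40 and 6.78 CPM in KO (log2 fold change -2.55, SE 0.60, adjusted p = 0.0221), and was not called without KO 1 (0.0566), KO 2 (0.0916) or KO 3 (0.0709). Without WT 2 the log2 fold change of Cxcl10 was -1.75 (adjusted p = 0.0312). Ccl4 rose by 0.36 (adjusted p = 0.0246), and this was lost without WT 1 (0.0835), WT 3 (0.0677) or KO 3 (0.0789).

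Interferon-stimulated genes had the lowest median of the lists with more than 1 tested gene, at -0.92, with 8 of 30 called lower and none higher, by edgeR or DESeq2 or at an unadjusted p under 0.05. The share called lower by edgeR was 26.7%, beside 16.8% of all genes tested. Their summed level was 2619, 4921 and 2299 CPM in WT and 2124, 1475 and 1798 CPM in KO, so WT 2 stood far above the others. Ifit2, Ifit1, Rsad2 and Cmpk2, which encode antiviral effectors, had log2 fold changes of -1.90, -1.70, -1.60 and -1.39. Without WT 2 these were -1.11, -1.01, -0.96 and -0.81, and of the 4 only Cmpk2 was then called (adjusted p = 0.0266). With any of WT 1, KO 1, KO 2 or KO 3 left out none of the 4 was called, at adjusted p of 0.0517 to 0.161, and without WT 3 all 4 were. The number called lower was 21 with DESeq2 and 0 with no filter on low counts. Leaving out WT 1 gave 2, WT 2 gave 5, WT 3 gave 17, KO 1 gave 3, and KO 2 or KO 3 gave 0. At an unadjusted p under 0.05, 20 of the 30 were lower in edgeR with all libraries.

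**Figure D5:**
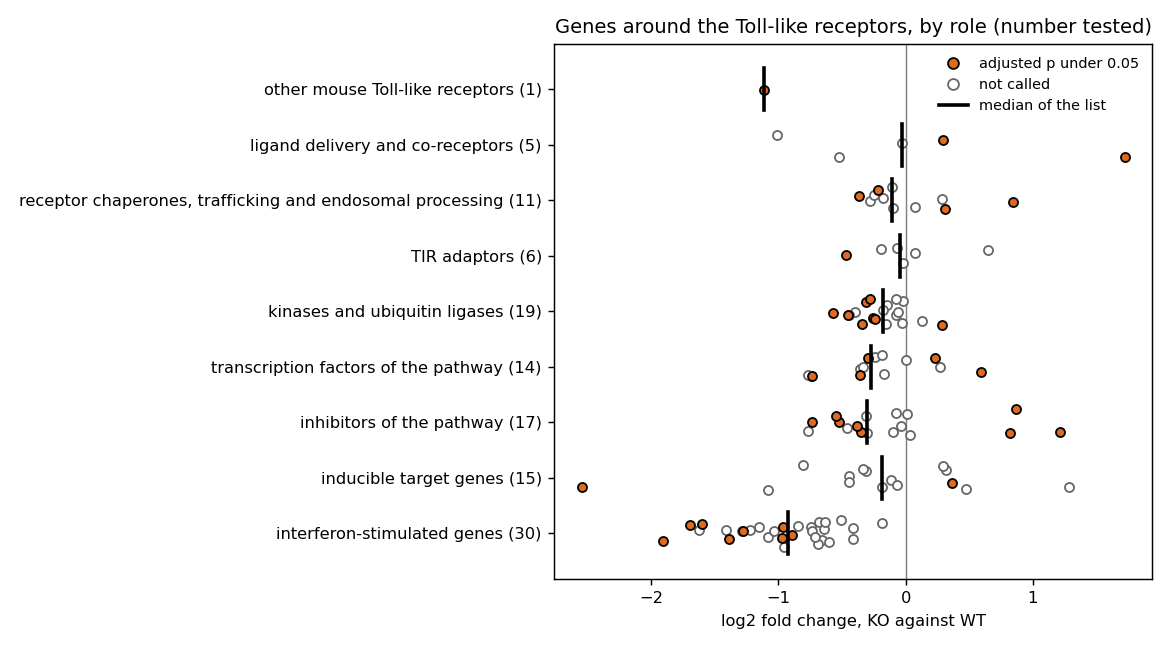
Log2 fold changes of the 117 tested genes of the pathway by role, filled where the adjusted p was under 0.05, with a line at the median of each list. Interferon-stimulated genes lie lowest among the lists with more than 1 gene, and the filled points of the co-receptors and the farthest ones of the inhibitors lie above 0.

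Markers of other cells that carry these receptors moved in part with the receptor genes. B cells and plasmacytoid dendritic cells are known for TLR7 and TLR9. The 8 B cell markers summed to 106 to 131 CPM in WT and 49.1 to 77.1 CPM in KO, nearly all of it Ighm (101 to 125 against 45.3 to 70.5 CPM), while Vpreb3 was at 0 in every library. The 8 plasmacytoid markers summed to 665 to 854 CPM in WT and 488 to 630 CPM in KO, nearly all of it Irf8, Bst2 and Tcf4. Irf8 and Bst2 also stand in the pathway lists above. Klk1 was at 0 and Siglech reached 0.0702 to 0.604 CPM. Ccr9, Spib and Ly6d reached at most 0.281, 0.343 and 0.240 CPM. Mean levels of Ccr9, Spib and Ly6d were higher in KO, and that of Siglech was higher in WT. Monocyte markers (6 genes) summed to 1500 to 1844 CPM in WT and 592 to 1018 CPM in KO, most of it F13a1, while Fn1 was called higher. Neutrophil markers (10 genes) overlapped, at 34.3 to 88.1 CPM in WT and 40.8 to 117 CPM in KO, and conventional dendritic cell markers (8 genes) were at 4.41 to 4.76 and 5.85 to 6.18 CPM. T and NK cell markers (8 genes) were at 13.4 to 18.6 and 11.6 to 17.9 CPM, nearly all of it Cd4 (12.9 to 17.8 against 9.99 to 16.8 CPM). Endothelial markers (6 genes, Emcn at 0) were at 32.8 to 47.4 and 36.2 to 58.6 CPM, most of it Vwf. Stromal markers (8 genes, Dcn and Lum at 0) were at 2.79 to 5.03 and 2.46 to 2.96 CPM, most of it Pdgfrb. Mast cell markers (7 genes, Tpsb2 and Cma1 at 0) were at 0.241 to 0.375 and 0.843 to 1.78 CPM, most of it Kit. The part of these cells, and of the lower Lyz2 and Csf1r in KO, in the receptor values was not tested.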

How the data were processed

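Total RNA from bone marrow-derived macrophages was sequenced from directional libraries, per the labels' protocols. The build mm10, DRAGEN and DESeq2 are named in the submitters' processing notes, with no versions or roles. The counter, its annotation and its strand setting were not stated in the sources used here. The authors deposited counts per Ensembl gene and a normalized signal per gene, whose factors differ between genes. Symbols, exons and coordinates came from GENCODE M21 (GRCm38).

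Genotypes came from the labels, which give no replicate numbers, so libraries were numbered by their order in the series. The test on counts was that of edgeR 4.0.16 under R 4.3.3: filterByExpr by genotype (minimum count 10), TMM scaling, and the robust quasi-likelihood F test, two-sided, without covariates. P-values were adjusted by the Benjamini-Hochberg method over 12862 genes, with a threshold of 0.05. The biological coefficient of variation was 0.121. Cdh11 failed the filter and was added for its own test. Replicate libraries differed beyond sampling noise (chi-square per degree of freedom 11.7 to 48.8).

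The members and gene lists were chosen with earlier results of these data known. Named genes were all members, up to 4 called genes of largest change per list and mean log2 CPM not below 0, genes named for their place in the pathway, and the gene nearest in profile to each member. Alternatives were DESeq2 1.42.0, limma-voom (limma 3.58.1), RLE, upper-quartile and plain scaling, no filter and a filter of 1 CPM in 3 libraries, limma on log2(signal + 1) of the deposited values, each library left out, and, added later, WT 2 and KO 2 both left out. Protein sequences were not used here. The test was tried on simulated counts.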

Additional observations from a re-analysis of the deposited data

How the results depend on the processing

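Of the 7 falls, that of Tlr7 was called in all 15 alternatives. All 15 gave negative log2 fold changes for each member except Tlr6, which was 0.0065 with upper-quartile scaling, 0.042 on the deposited values, and -0.14 to 0.11 with 1 library left out. Members called lower numbered 2 to 7 with 1 library left out and 2 with WT 2 and KO 2 both left out; 5 were called with upper-quartile scaling, plain totals or no filter, 6 on the deposited values and 8 with DESeq2. None was called higher in any setting, also at an unadjusted p under 0.05 in edgeR.

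Of all genes, 2157 were called lower and 2375 higher; upper-quartile scaling gave 1621 and 2933 and moved the median of all genes by 0.06. With 1 library left out, 942 to 2665 were lower and 1037 to 2791 higher, and without WT 2 and KO 2, 668 and 710. Pathway genes called lower (28) numbered 48 with DESeq2, 17 with no filter, 14 without WT 2 and KO 2, and 9 to 37 with 1 library left out; those higher (11) numbered 4 without WT 2 and KO 2 and 5 to 12 with 1 library left out. These settings with fewer libraries also test fewer samples; causes beyond that were not tested. No paired analysis was possible because the labels give no replicate numbers, and the numbers used here follow the order of the samples.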

Other observations

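Profiles over the 6 libraries were compared by the root mean square difference of log2 CPM, each gene centred on its own mean, among 10156 genes whose mean log2 CPM was not below 1. The nearest gene to Tlr7 was Lpin1, a phosphatidate phosphatase gene (0.0192), that to Tlr13 was Ccdc28a (0.0150) and that to Tlr4 was Amz2 (0.0162). Tlr8 was nearest to the nuclear receptor gene Rora (0.0256), Tlr1 to Thap3 (0.0316), Tlr6 to Heatr1 (0.0373), Cd14 to the sterol enzyme gene Hsd17b7 (0.0474) and Tlr3 to Fbrsl1 (0.0573). Tlr9 and Tlr2, with the widest spread between libraries, were nearest to Bbc3 (0.0761) and to the death receptor gene Fas (0.0859). Within the set, the nearest member to Tlr7 was Tlr9 (0.104), that to Tlr1 was Tlr8 (0.0817) and that to Tlr4 was Tlr13 (0.0756). Every member had nearer genes outside the set, from 8 for Tlr9 to 1612 for Tlr13. Far more genes were compared outside the set than inside, so this says little about the set. These are descriptions over 6 libraries that share their scaling.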
